A study of Mus musculus with 8 samples.

Results

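The genes of MHC antigen presentation were examined in gastrocnemius, a calf muscle of mainly fast fibres, from mice lacking the histone deacetylase HDAC5 and from wild type littermates. The 10 genes were listed by name: B2m, H2-K1, H2-D1, Tap1, Psmb8 and Psmb9 of the class I pathway, and Cd74, H2-Aa, H2-Ab1 and Ctss of the class II pathway. A gene was measured by a probe set whose annotation gives that symbol and no other, which held for 8 of the 10 among 19938 genes tested. H2-K1 and H2-D1 had 0 such probe sets. The HDAC5 KO group held 4 samples (spelled HADAC5 KO in the labels) and the HDAC5 WT group 4 samples, all from animals aged 30 weeks on chow with no further treatment, 1 array each. The KO mice came from a published line, and neither the deleted part of the gene nor the sex of the animals is given in the sources used here. The labels do not say that each sample came from a separate animal, so the p-values rest on a spread between samples that may be technical.

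MHC class I molecules display peptides from the cell's own cytosol on nearly every cell type. The immunoproteasome cuts proteins into peptides, the TAP transporter carries them into the endoplasmic reticulum, and a heavy chain paired with beta-2 microglobulin binds them. MHC class II molecules are made mainly by dendritic cells, macrophages and B cells and display peptides from material taken up into endosomes. Resting skeletal muscle fibres carry little class I and, in health, no appreciable class II, so whole muscle also holds signal from its resident immune and vascular cells. Interferon gamma induces both sets of genes.

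Between any pair of the 8 arrays the correlation was 0.988 to 0.995, and array medians were 7.69 to 7.77 in log2 signal. The targeted gene fitted the labels in each sample: Hdac5 signal was 8.32, 8.31, 8.31 and 8.39 in KO muscle, against 9.94, 9.76, 9.83 and 9.80 in WT muscle. All 10 muscle fibre markers examined, such as Ckm and Acta1, were bright, and their mean lay at 14.26 to 14.31 in KO and 14.29 to 14.31 in WT samples. The deposited table holds no detection calls, so whether a dim immune marker was present was not determined.

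Of the 8 measured genes, 0 rose and 0 fell in KO muscle by limma at an adjusted p under 0.05, a threshold that 0.0652% of all genes passed (0.0401% higher and 0.0251% lower in KO). At an unadjusted p under 0.05, which 7.9% of all genes met, 1 of the 8 differed, and it was B2m. In 0 of the 8 did the KO and WT samples fall into ranges that do not overlap, which 4.9% of all genes did (2.91% higher and 1.99% lower in KO). The median difference of the 8 was -0.045 on the log2 scale, against 0.003 over all genes, with 3 above and 5 below 0. In these bulk samples, fewer cells of a type and less RNA per cell cannot be told apart.

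B2m, the light chain shared by all classical class I molecules, had the smallest p of the 8 genes. Its log2 signal was 11.99, 12.15, 12.19 and 11.89 in KO samples 1 to 4, against 12.11, 12.58, 12.44 and 12.32 in WT samples 1 to 4. The WT samples lay higher apart from sample 1, which fell among the KO samples. The means were 12.06 ± 0.14 in KO and 12.36 ± 0.20 in WT muscle (SD, n = 4 each). The difference was -0.306 (SE 0.099, 95% interval -0.52 to -0.09), a KO signal of 0.809 of the WT signal, with a limma adjusted p of 0.432 over all genes. The exact 2-sided permutation p was 0.0857, where 4 against 4 samples cannot go below 0.0286. With any 1 sample left out the difference stayed between -0.388 and -0.234, with an adjusted p above the threshold each time.

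The promoter of B2m is shown because it carries letters of the interferon and NF-kappaB motifs through which class I genes are known to be induced. The 250 bases before the RefSeq start lie at chr2:122147437-122147686 on the plus strand of GRCm38.p6. Capitals mark matches, on either strand, to the interferon-stimulated response element core (GAAA, then NN, then GAAA), the kappaB consensus and the CCAAT box.
B2m: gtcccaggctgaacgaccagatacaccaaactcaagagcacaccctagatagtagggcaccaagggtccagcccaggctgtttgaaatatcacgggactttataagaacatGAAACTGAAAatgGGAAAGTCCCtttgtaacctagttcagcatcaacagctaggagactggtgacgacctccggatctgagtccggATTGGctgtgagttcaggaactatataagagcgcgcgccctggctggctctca
The response element core begins 139 bases before the start, the kappaB match spans bases 126 to 117 before it, and the reversed CCAAT box begins 53 bases before it. Over the 32851 RefSeq promoter windows of this length, 2.98% hold the response element core, 7.25% a kappaB match and 33.8% a CCAAT box. Of the 8 listed genes with a window, the response element core was found in B2m and Ctss, and a kappaB match in B2m, H2-Aa, H2-D1 and H2-K1. The gamma-activated site core (TTCNNNGAA), held by 7.02% of windows, was found in Psmb8 alone. These matches describe the letters and do not show binding.

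The class I heavy chains H2-K1 and H2-D1, which hold the peptide, are so alike that both of the probe sets naming them are annotated to H2-K1, H2-D1 and LOC547349 together. Their values cannot be assigned to any of these genes. One of these probe sets read 9.91, 9.92, 9.98 and 9.85 in KO and 9.90, 10.26, 9.82 and 9.84 in WT samples, with WT sample 2 standing above the other 7. The other read 9.71, 9.59, 9.57 and 9.49 in KO and 9.69, 9.89, 9.63 and 9.70 in WT samples, with 3 of the 4 KO samples below every WT sample. In a limma fit of all 35556 probe sets the differences were -0.038 (SE 0.098, adjusted p = 0.951) and -0.138 (SE 0.074, adjusted p = 0.720).

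Tap1, a subunit of the peptide transporter, varied least between samples. Its signal was 8.26, 8.34, 8.33 and 8.18 in KO and 8.18, 8.41, 8.37 and 8.25 in WT samples, which overlap almost fully. The difference was -0.024 (SE 0.068, 95% interval -0.17 to 0.12; limma adjusted p = 0.958). Without KO sample 4 it was 0.009 and without WT sample 2 it was 0.013, so it has no settled sign.

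Psmb8 and Psmb9 encode catalytic subunits that replace those of the standard proteasome to form the immunoproteasome. Psmb8 read 8.30, 8.21, 8.28 and 8.31 in KO and 8.22, 8.48, 8.31 and 8.02 in WT samples. The KO samples sat close together inside the wider WT range. The difference was 0.020 (SE 0.085, 95% interval -0.17 to 0.21; limma adjusted p = 0.971), and it was -0.058 without WT sample 4. Psmb9 read 8.78, 8.82, 9.03 and 9.21 in KO and 8.93, 9.14, 9.07 and 8.97 in WT samples. Here the KO samples spread over a range that enclosed all WT samples, with samples 1 and 2 lowest and sample 4 highest. The difference was -0.067 (SE 0.093, 95% interval -0.27 to 0.14; limma adjusted p = 0.909).

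Psmb9, Tap1 and Psmb8 are direct neighbours on chromosome 17 in the RefSeq order, with 0 protein-coding genes between them, and Psmb9 and Tap1 are read in opposite directions from a common stretch. The 225 bases between their starts are shown because they serve as the promoter region of both genes. They lie at chr17:34187331-34187555, written on the plus strand of GRCm38.p6, so that Psmb9 starts just before the first base and Tap1 just after the last. Capitals mark the only match to the 4 motifs searched, a CCAAT box.
Psmb9-Tap1: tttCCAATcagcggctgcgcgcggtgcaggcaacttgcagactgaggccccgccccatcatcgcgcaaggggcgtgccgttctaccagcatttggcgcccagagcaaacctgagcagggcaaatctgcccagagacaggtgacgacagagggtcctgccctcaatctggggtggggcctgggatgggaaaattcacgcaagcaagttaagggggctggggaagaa
Despite this common stretch, the signals of Tap1 and Psmb9 did not detectably vary together over the 8 samples (Pearson r 0.07, exact permutation p = 0.859; Spearman rho 0.07, exact permutation p = 0.882). The adjusted p over the 28 pairs of members was 0.875. Without KO sample 4 and WT sample 1, the samples farthest from the median of Tap1, r was 0.66.

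**Figure D1:**
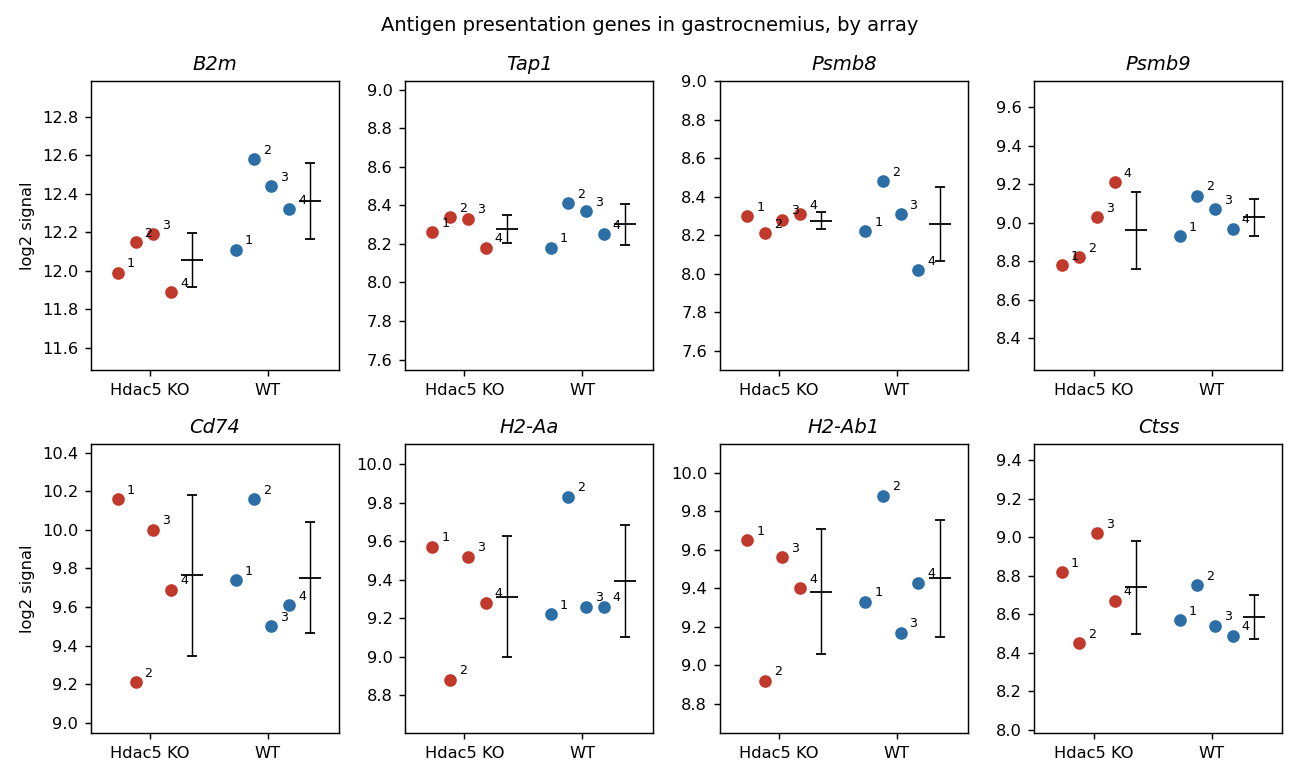
Log2 signal (vertical axis) of the 8 measured antigen presentation genes, with Hdac5 KO samples left in red and WT samples right in blue. Points are single arrays numbered by replicate, the bar beside them is the mean with its SD (n = 4), and every panel spans the same log2 height with its own origin. KO and WT points overlap in all 8 panels, and the class II panels (Cd74, H2-Aa, H2-Ab1) spread widest within a genotype, with KO sample 2 lowest and WT sample 2 at the top.

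H2-Aa encodes the alpha chain of the I-A molecule and H2-Ab1 its beta chain. H2-Aa read 9.57, 8.88, 9.52 and 9.28 in KO and 9.22, 9.83, 9.26 and 9.26 in WT samples. KO sample 2 was the lowest of the 8 and WT sample 2 the highest, while the other 6 lay between 9.22 and 9.57. The difference was -0.078 (SE 0.161, 95% interval -0.43 to 0.27; limma adjusted p = 0.940), and it was 0.066 without KO sample 2 and 0.068 without WT sample 2.

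H2-Ab1 read 9.65, 8.92, 9.56 and 9.40 in KO and 9.33, 9.88, 9.17 and 9.43 in WT samples. The lowest and the highest sample were the same as for H2-Aa. The difference was -0.071 (SE 0.166, 95% interval -0.43 to 0.29; limma adjusted p = 0.948), and it was 0.084 without KO sample 2 and 0.071 without WT sample 2.

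Cd74, the invariant chain that guides class II molecules to the endosome and blocks their groove on the way, read 10.16, 9.21, 10 and 9.69 in KO and 9.74, 10.16, 9.50 and 9.61 in WT samples. Again KO sample 2 was lowest, and KO sample 1 matched WT sample 2 at the top. The difference was 0.015 (SE 0.188, 95% interval -0.40 to 0.43; limma adjusted p = 0.995). It was -0.118 without KO sample 1 and 0.20 without KO sample 2. For all 3 class II genes the interval includes 0, and a genotype difference within its bounds was not excluded by these arrays.

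The H2-Aa promoter stands here for the class II promoters, which are known to be switched on by the transactivator CIITA acting through a conserved module that ends in a reversed CCAAT box. The 250 bases before the RefSeq start lie at chr17:34287824-34288073 on the minus strand of GRCm38.p6 and are written in the direction of the gene. Capitals mark overlapping kappaB matches and a reversed CCAAT box.
H2-Aa: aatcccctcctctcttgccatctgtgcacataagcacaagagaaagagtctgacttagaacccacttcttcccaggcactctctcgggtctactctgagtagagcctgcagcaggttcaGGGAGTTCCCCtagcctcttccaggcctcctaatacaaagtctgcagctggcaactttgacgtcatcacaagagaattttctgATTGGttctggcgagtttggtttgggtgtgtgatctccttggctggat
Together the kappaB matches span bases 131 to 121 before the start, and the CCAAT box begins 48 bases before it. H2-Ab1 and H2-Aa are neighbours on chromosome 17 with 0 protein-coding genes between them. In all, 5 of the 8 measured genes are on that chromosome.

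Ctss, a lysosomal protease that trims the invariant chain so that class II can be loaded, read 8.82, 8.45, 9.02 and 8.67 in KO and 8.57, 8.75, 8.54 and 8.49 in WT samples. KO samples 1 and 3 lay above every WT sample and KO sample 2 lay below every WT sample. The means were 8.74 ± 0.24 in KO and 8.59 ± 0.11 in WT muscle (SD, n = 4 each). The difference was 0.152 (SE 0.107, 95% interval -0.08 to 0.39; limma adjusted p = 0.787; exact permutation p = 0.314). It was 0.058 without KO sample 3 and 0.249 without KO sample 2.

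**Figure D2:**
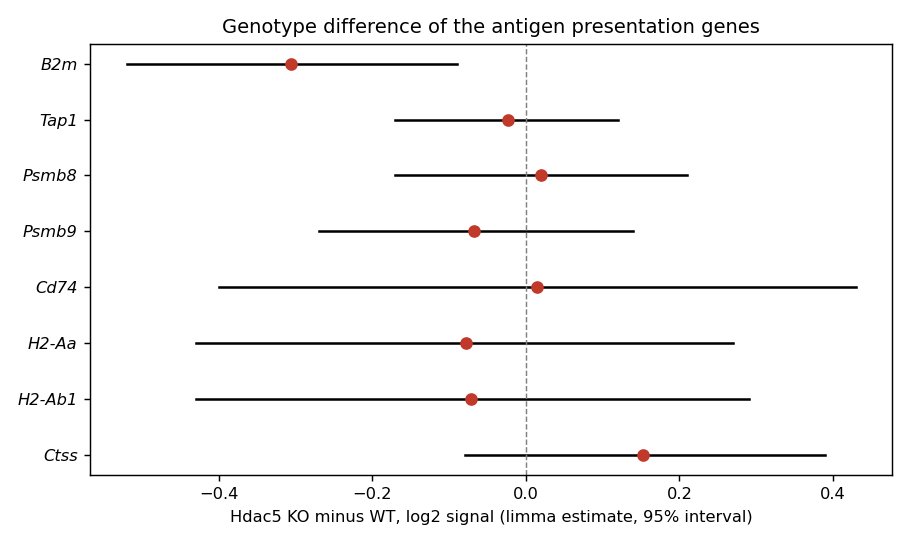
KO minus WT difference in log2 signal (horizontal axis) for each of the 8 genes, with points for the limma estimate and lines for its 95% interval. The interval of B2m, -0.52 to -0.09, lies below 0, although its p does not pass after adjustment over all genes, and the other 7 intervals include 0.

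The spread of these genes within a genotype was itself large for the class II set. The residual SD, which measures how far samples of one genotype lie from their mean, was 0.361 for Cd74, 0.315 for H2-Ab1 and 0.304 for H2-Aa, against a median of 0.101 over all genes. That of Cd74 exceeded the residual SD of 99.6% of all genes and of 99.3% of the 1994 genes in the same decile of mean signal. The corresponding shares were 99.3% and 99.0% for H2-Ab1, and 99.2% and 98.8% for H2-Aa. From the lowest to the highest of the 8 samples, the signal differed 1.94-fold for Cd74, 1.95-fold for H2-Ab1 and 1.93-fold for H2-Aa.

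The other members ranged widely. Ctss exceeded 93.4% of all genes in residual SD, B2m 89.5%, Psmb9 85.8%, Psmb8 76.8% and Tap1 40.9%. Among the 1994 genes of its own decile of mean signal, the share for B2m was 96.2%.

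**Figure D3:**
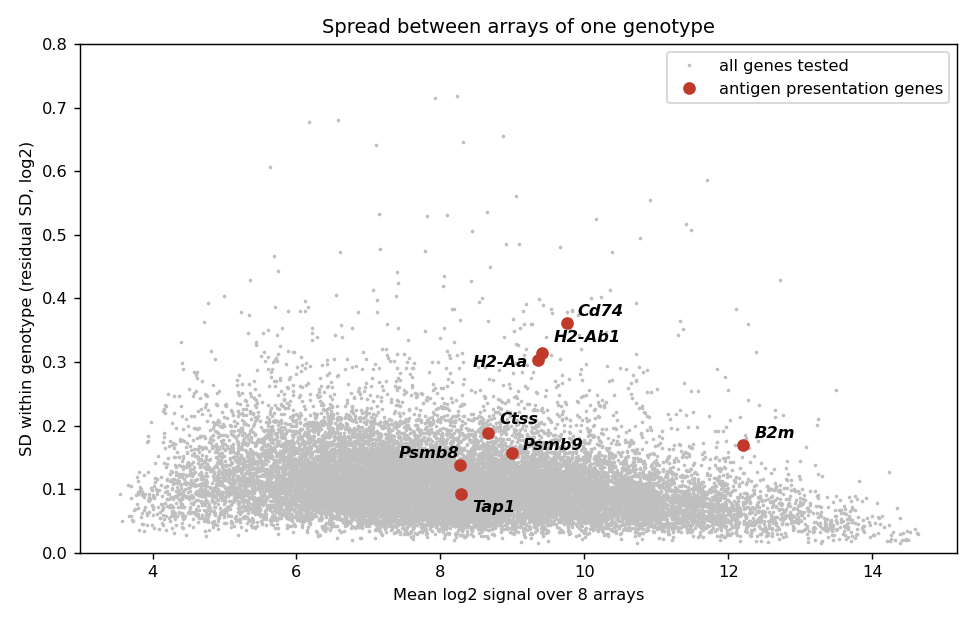
Residual SD within genotype (vertical axis, log2) against mean log2 signal over the 8 arrays (horizontal axis) for all genes tested (grey) and the 8 antigen presentation genes (red). Cd74, H2-Ab1 and H2-Aa lie between 0.304 and 0.361, above nearly all genes of like signal. The axis ends at 0.8, with 9 genes beyond it.

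The class II genes varied together from sample to sample. Over the 8 samples H2-Aa and H2-Ab1 had a Pearson r of 0.97 (exact permutation p = 0.000397, adjusted p = 0.00556 over the 28 pairs of members) and a Spearman rho of 0.95 (exact permutation p = 0.00114, adjusted p = 0.0319). Cd74 had an r of 0.95 with H2-Ab1 (exact permutation p = 0.000397, adjusted p = 0.00556) and of 0.94 with H2-Aa (exact permutation p = 0.00107, adjusted p = 0.00995). Their rho values were 0.88 and 0.83, with exact permutation p-values of 0.00724 and 0.0154 and adjusted p-values of 0.0676 and 0.108.

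Without KO sample 2 alone, r for Cd74 and H2-Aa was 0.89 and no longer passed (exact permutation, adjusted p = 0.0796), while the other 2 class II pairs passed with any 1 sample left out. Without KO sample 2 and WT sample 2, r for H2-Aa and H2-Ab1 was 0.86, and without KO samples 1 and 2, r for Cd74 was 0.93 with H2-Ab1 and 0.91 with H2-Aa. In those sets of 6 samples the adjusted p over the 28 pairs was 0.175 for each, above the threshold. After subtracting each genotype's mean, the 3 values of r were 0.97, 0.96 and 0.95.

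For Ctss and the class II genes, 0 of the 3 pairs passed on the deposited values. The r was 0.81 with Cd74, 0.72 with H2-Aa and 0.69 with H2-Ab1, with exact permutation p-values of 0.0155, 0.0414 and 0.0588 and adjusted p-values of 0.108, 0.193 and 0.235. The rho values were 0.88, 0.81 and 0.76, with exact permutation p-values of 0.00724, 0.0218 and 0.0368. The adjusted p-values of these rho values were 0.0676, 0.122 and 0.147. With each genotype's mean subtracted, r was 0.88, 0.88 and 0.83 (permutation of the centred values, adjusted p = 0.0227, 0.0227 and 0.0499). Centred values sum to 0 within each genotype, which that permutation ignores. These p-values are therefore not exact and may be too small, so they were not read as passing. Without KO sample 3, the r of Cd74 with Ctss was 0.93 (exact permutation, adjusted p = 0.0315). Of the 8 sets with 1 sample left out, 1 passed for this pair and 0 for the other 2 pairs. Without KO sample 2, r with Ctss was 0.76 for Cd74 (exact permutation, adjusted p = 0.251), 0.64 for H2-Aa and 0.58 for H2-Ab1.

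Among the class I genes, 0 pairs passed on the deposited values. B2m and Tap1 had an r of 0.77 and a rho of 0.79 (exact permutation p = 0.0269 and 0.0279, adjusted p = 0.151 and 0.130), and r was 0.47 without WT sample 2 and KO sample 4. With each genotype's mean subtracted it was 0.97 (permutation of the centred values, p = 0.000298, adjusted p = 0.00324). On centred values these p-values are not exact and may be too small. Between B2m and the class II genes r lay between 0.06 and 0.35, and between B2m and Psmb9 it was 0.26 (0.82 without WT sample 2 and KO sample 4). That the class I and class II values of r differ was not tested.

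**Figure D4:**
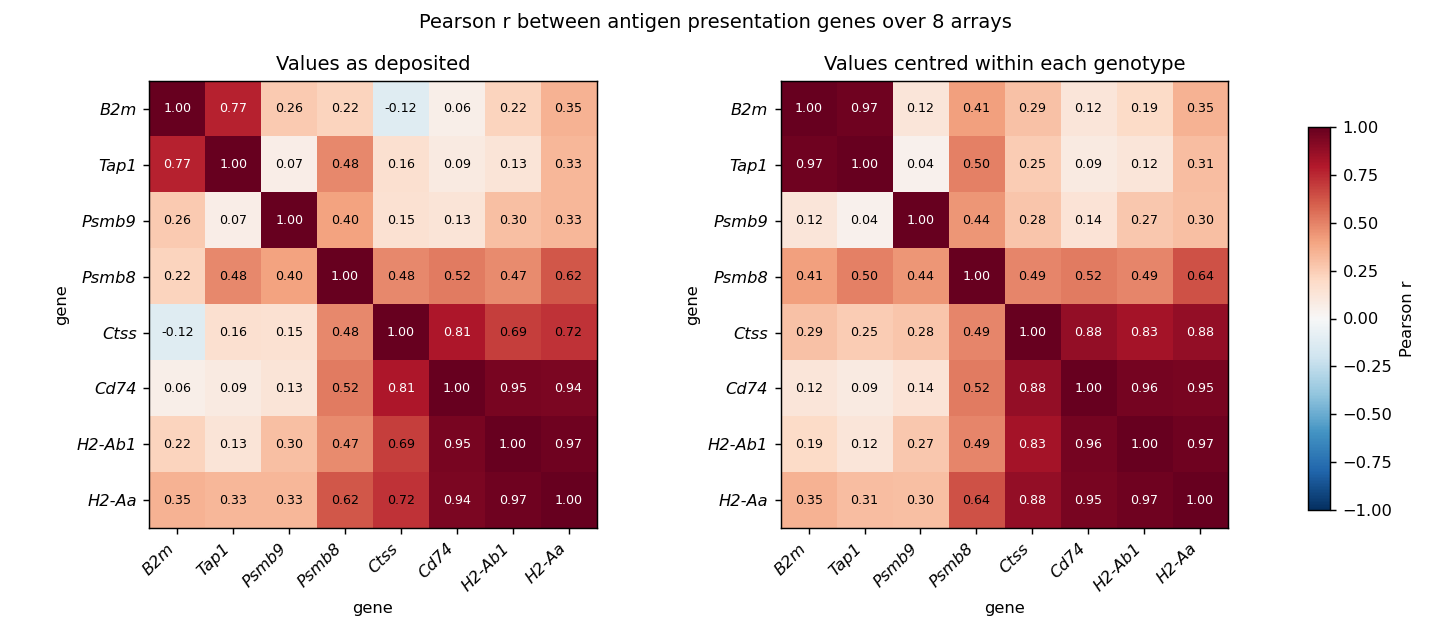
Pearson r over the 8 arrays for each pair of the 8 genes, on the deposited log2 values (left) and after subtracting each genotype's mean (right), on a colour scale of -1 to 1. Cd74, H2-Aa and H2-Ab1 form a block at 0.94 to 0.97 in the left panel. Ctss reads 0.69 to 0.81 with these genes in the left panel and 0.83 to 0.88 in the right. B2m reads 0.77 and 0.97 with Tap1. The pairs of Ctss and that of B2m and Tap1 did not pass on the deposited values.

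Of the markers of cells that present antigen, 0 rose and 0 fell after adjustment over all genes in limma. Of 12 macrophage markers, such as Adgre1 and Lyz2, 8 were higher in KO muscle at an unadjusted p under 0.05, a level that 4.72% of all genes met in that direction (smallest limma adjusted p = 0.192). In each of these 8, KO samples 1 and 3 read highest, so the 8 are not separate results. In all, 10 of the 12 differences lay above 0 and 2 below it, those of Mertk (-0.041) and Fcgr1 (-0.042). The mean of the 12 was 8.72, 8.5, 8.80 and 8.55 in KO and 8.32, 8.56, 8.35 and 8.24 in WT samples. WT sample 2, the sample highest in H2-Aa and H2-Ab1, had the highest macrophage mean of its group, and KO sample 2, lowest in class II, had the lowest of its group. The mean of 6 pan-leukocyte markers lay between 7.68 and 7.96 in KO and between 7.52 and 7.80 in WT samples, with 1 of the 6 higher at an unadjusted p under 0.05.

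Of 10 dendritic cell markers, 2 were higher and 1 was lower at an unadjusted p under 0.05, levels that 4.72% and 3.18% of all genes met. These 3 are named after their values were seen. Clec10a, a lectin that macrophages also carry, read 7.89, 7.73, 7.82 and 7.76 in KO and 7.42, 7.55, 7.23 and 7.19 in WT samples (difference 0.457, SE 0.082, limma adjusted p = 0.0763). Siglech, of plasmacytoid dendritic cells, differed by 0.255 and Xcr1, of cross-presenting dendritic cells, by -0.292 (limma adjusted p = 0.353 and 0.299). The mean of the 10 lay between 7.12 and 7.38 in KO and between 7.14 and 7.24 in WT samples.

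Lymphocyte and endothelial markers did not differ at that level. Of 7 B cell markers 0 did, with means of 6.51 to 6.66 in KO and 6.58 to 6.76 in WT samples. Of 9 T and NK cell markers 0 did, with means of 6.45 to 6.66 in KO and 6.48 to 6.67 in WT samples. Of 8 endothelial markers 0 did, with means of 9.94 to 10.25 in KO and 9.97 to 10.16 in WT samples.

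Each gene was also compared with the marker means over the 8 samples, 64 relations in all. The macrophage mean had an r of 0.86 and a rho of 0.83 with Ctss (exact permutation p = 0.00531 and 0.0154, adjusted p = 0.170 and 0.465), and r was 0.58 without KO samples 1 and 3. With the pan-leukocyte mean Ctss had an r of 0.92 and a rho of 0.86 (exact permutation p = 0.00136 and 0.0107, adjusted p = 0.0873 and 0.465), and r was 0.77 without the same samples. H2-Aa had an r of 0.47 and a rho of 0.69 with the macrophage mean (exact permutation p = 0.234 and 0.0694). Adjusted over the 64 relations, these exact permutation p-values were 0.729 and 0.513. Without KO sample 2 and WT sample 2 that r was 0.90, and the r of H2-Ab1 was 0.74 in place of 0.42. With the dendritic cell mean the rho was 0.81 for H2-Aa and 0.74 for H2-Ab1 (exact permutation p = 0.0218 and 0.0458, adjusted p = 0.465 and 0.513). The r of these pairs was 0.37 and 0.46, and -0.04 and 0.18 without KO sample 2 and WT sample 2. With each genotype's mean subtracted, r with the macrophage mean was 0.90 for H2-Aa, 0.85 for Cd74, 0.80 for H2-Ab1 and 0.92 for Ctss. Of the 64, 0 passed at an adjusted p under 0.05, and the part of these cells in the values was not tested.

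Class II signal was then set against the macrophage mean of the same sample, a comparison chosen after the values were seen. H2-Aa minus the macrophage mean was 0.85, 0.38, 0.72 and 0.73 in KO and 0.90, 1.28, 0.91 and 1.02 in WT samples, so every KO sample lay below every WT sample. The macrophage mean that was subtracted was itself 0.28 higher in KO, and H2-Aa alone differed by -0.078, so most of this separation restates the macrophage difference. The difference was -0.35 (exact permutation p = 0.0286, the smallest that 4 against 4 can give, and 0.114 when adjusted over the 4 genes compared). For H2-Ab1 it was -0.35 (exact permutation p = 0.0857), for Cd74 -0.26 (p = 0.257, exact) and for Ctss -0.13 (p = 0.0857, exact), with overlapping groups in each.

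**Figure D5:**
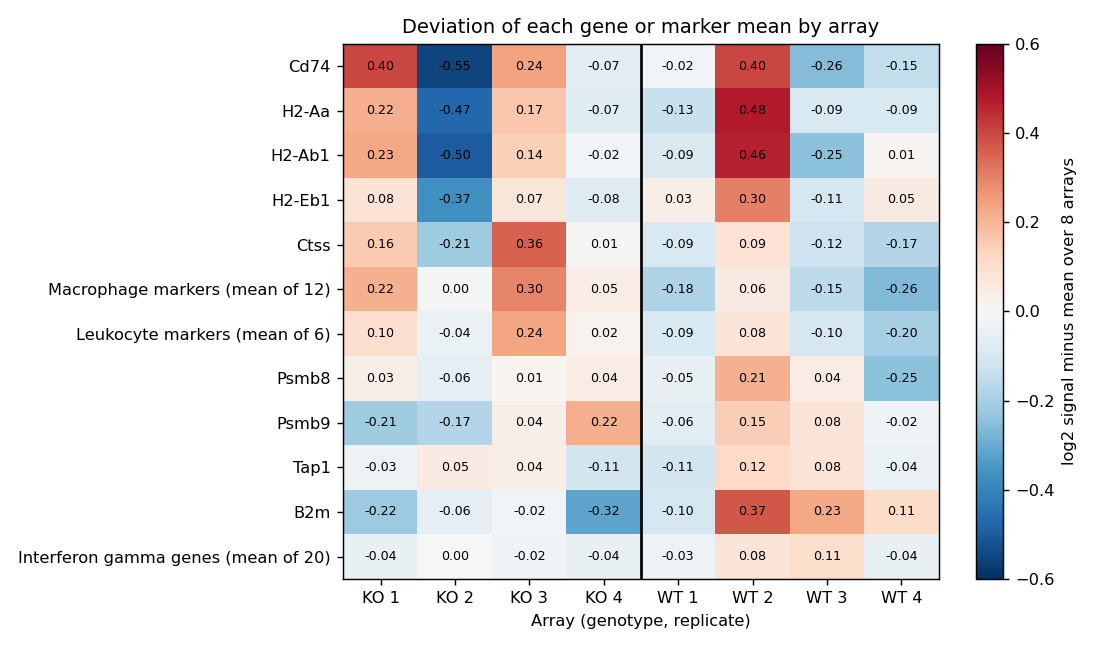
Log2 signal of each sample minus the mean over the 8 arrays (colour, with the value printed), for the 8 antigen presentation genes, H2-Eb1 and the means of 3 gene lists (rows), in KO samples 1 to 4 and then WT samples 1 to 4 (columns). KO sample 2 is low and WT sample 2 high across Cd74, H2-Aa, H2-Ab1 and H2-Eb1, and B2m is below its mean in all KO samples and in WT sample 1.

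Among 9961 genes brighter than the median gene, the one whose pattern over the 8 samples was most like the mean of H2-Aa, H2-Ab1 and Cd74 was H2-Eb1 (Pearson r 0.933, rho 0.929). It encodes the beta chain of the other class II molecule, I-E, and is the next protein-coding gene after H2-Aa on chromosome 17. It read 8.60, 8.15, 8.59 and 8.44 in KO and 8.55, 8.82, 8.41 and 8.57 in WT samples, with the same lowest and highest sample as H2-Aa (difference -0.146, SE 0.109, limma adjusted p = 0.806). The next in order were Dbn1 (r 0.932), an actin-binding protein, Ankrd9 (0.930), an ankyrin repeat protein, Mrm2 (0.894), a methyltransferase of mitochondrial ribosomal RNA, and Dpysl2 (0.890), a cytoskeletal regulator. The rho values of these 4 were 1, 0.786, 0.929 and 0.898.

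The genes most like B2m were others. They were Hspa1l (r 0.981), a heat shock protein of the Hsp70 family, Sult1a1 (0.940), a sulfotransferase, Mettl22 (0.919), a methyltransferase, Mir1a-1 (0.912), which encodes a muscle microRNA, and Rnf213 (0.912), a large ubiquitin ligase. Their rho values were 0.976, 0.952, 0.833, 0.952 and 0.905. With 8 samples and 9961 genes, high values of r also arise among unrelated genes, so these lists are descriptions.

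Of 17 further measured genes of the class I pathway, 0 rose and 0 fell, 0 met an unadjusted p under 0.05 in limma (7.9% of all genes did), and the median difference was -0.007, with 7 above and 10 below 0. Mr1, which presents vitamin metabolites to T cells, had the smallest p, at 11.57 ± 0.07 in KO and 11.76 ± 0.21 in WT muscle (SD, n = 4 each; difference -0.192, SE 0.094), with WT sample 3 alone at 12.08. The others of smallest p were Psme1, a proteasome activator subunit (-0.138), the chaperone Calr (-0.089) and the class I-like H2-Q2 (-0.101), whose probe set may also read its near-identical relatives. The KO and WT ranges did not overlap for 2 of the 17, against 4.9% of all genes. Calr lay at 11.45 to 11.54 in KO and 11.55 to 11.66 in WT samples. Erap1, a peptidase that trims peptides for class I and is named here after its values were seen, lay at 9.22 to 9.28 in KO and 9.11 to 9.21 in WT samples (limma adjusted p = 0.815). Named for their roles after the values were seen, Tap2, the partner of Tap1, differed by 0.004 (SE 0.065) and Psmb10, the remaining catalytic immunoproteasome subunit, by 0.084 (SE 0.071). Nlrc5, the class I transactivator, had 19 probe sets, with means of 6.13 to 11.22. Their differences ran from -0.24 to 0.08, with 15 below 0, and -0.077 on the brightest, which alone was counted above. The smallest unadjusted p among the 19 was 0.0131, in the limma fit of all probe sets.

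Of 17 further measured genes of the class II pathway, 0 rose and 0 fell, 1 met an unadjusted p under 0.05 in limma (7.9% of all genes did), and the median difference was 0.019, with 10 above and 7 below 0. That gene was Cd40, a costimulatory receptor of antigen-presenting cells, at 7.72, 7.82, 7.80 and 7.81 in KO and 7.89, 8.02, 7.89 and 8.05 in WT samples. The ranges did not overlap, as for 4.9% of all genes, and the difference was -0.174 (SE 0.060, limma adjusted p = 0.461). The endosomal protease Ctsh differed by 0.184 (SE 0.085), Ifi30, which reduces disulfides of antigens in endosomes, by 0.099 (SE 0.057), and the protease Ctsd by -0.080 (SE 0.056). In limma their adjusted p was 0.634, 0.726 and 0.787. Ciita, the class II transactivator, also named after its value was seen, differed by 0.027 (SE 0.071).

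Of the standard proteasome's 3 catalytic subunits, which Psmb8, Psmb9 and Psmb10 replace, 0 rose and 0 fell. Psmb6 was lower in KO at an unadjusted p under 0.05 in limma, as were 3.18% of all genes. It read 12.38, 12.36, 12.30 and 12.43 in KO and 12.50, 12.49, 12.55 and 12.58 in WT samples. Every KO sample lay below every WT sample, as for 1.99% of all genes, with a difference of -0.162 (SE 0.055, limma adjusted p = 0.461). Psmb5 differed by 0.020 (SE 0.090) and Psmb7 by -0.011 (SE 0.053).

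Of 20 genes of interferon gamma signalling, 0 rose and 0 fell, 4 were lower in KO at an unadjusted p under 0.05 in limma, and 15 of the 20 differences lay below 0. Over all genes 3.18% were lower at that level, and 9694 of 19938 differences lay below 0. The list's median difference was -0.041. Gbp4, an interferon-induced GTPase, read 8.94, 9.25, 8.95 and 9.04 in KO and 9.11, 9.46, 9.60 and 9.23 in WT samples (difference -0.302, SE 0.106, limma adjusted p = 0.461). The other 3 were the chemokines Cxcl9 (-0.233, SE 0.091), Cxcl11 (-0.175, SE 0.069) and Cxcl10 (-0.139, SE 0.060), which draw T cells to a tissue. Their limma adjusted p was 0.529, 0.539 and 0.597. The mean of the 20 genes was 8.91 to 8.95 in KO samples, and 8.92, 9.03, 9.06 and 8.91 in WT samples, where samples 2 and 3 stood apart. Over the 8 samples its r was 0.79 with B2m (exact permutation p = 0.0219, adjusted p = 0.351 over 64 relations; rho 0.67, exact permutation p = 0.0831) and 0.79 with Tap1 (exact permutation p = 0.0170, adjusted p = 0.351; rho 0.76, exact permutation p = 0.0368). Its r was -0.07 with Cd74, 0.21 with H2-Aa and -0.01 with H2-Ab1.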

How the data were processed

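RNA of 8 gastrocnemius samples was hybridised to Affymetrix mouse gene arrays, from 150 ng of total RNA with an integrity number above 8, per the labels' protocols. The values are log2 signals per probe set that the authors deposited, made with Affymetrix Expression Console 4.0 per the submitters' processing notes. How background was corrected and arrays were normalized is, in the sources used here, not given. That the scale is log2 was read from the values, which were not normalized again. Of 35556 probe sets, 21789 had 1 symbol in the platform annotation, 1621 several and 12146 none listed there. For genes with more than 1, the probe set with the highest mean was taken, which left 19938 genes. KO and WT were compared with limma 3.58.1 (R 4.3.3), genotype as the only term, with Benjamini-Hochberg adjustment over all 19938 genes and a threshold of 0.05. Differences are KO minus WT. Single genes and correlations used exact permutation, which is only approximate for values centred within each genotype. The number of arrays limits the precision. The limma fit and the permutation test of correlations on uncentred values were tested on simulated data. Sequences are from RefSeq (GRCm38.p6), whose table held promoter windows for 8 of the 10 genes.

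The genes and lists were chosen with earlier results of these data known. The text names every member, up to 4 genes of smallest p from each pathway list, and the 5 genes most like the class II mean and the 5 most like B2m, which alone stood for the class I chains because H2-K1 and H2-D1 had no probe set of their own. Alternatives were quantile normalization, median centring, a trended and robust eBayes, a filter on genes under the 25th percentile of mean signal, array weights, the mean of a gene's probe sets, a fit of all probe sets, the replicate block, leaving out each sample, and leaving out KO sample 1 with WT sample 4, the ends of the first principal component, chosen after seeing the data.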

Additional observations from a re-analysis of the deposited data

Results flagged for a closer look

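The H2-Aa signal of WT sample 2, 9.83, stood apart from the other WT samples, which lay at 9.22 to 9.26. Its gap to the nearest of them was 0.933 of the range of the group, above Dixon's 95% critical value for 4 samples. Such a test marks about 1 group in 20 by chance, and 16 groups (8 genes in each genotype) were tested. Without that sample the H2-Aa difference was 0.068, against -0.078 with it.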

How the results depend on the processing

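The 8 genes gave 0 calls in each of the 17 refits, while the number of changed genes over the whole table, 13, was 23 with quantile normalization, 44 under a trended, robust eBayes, 36 after dropping dim genes, 31 with array weights, 28 probe sets in the fit of all probe sets, 30 with the replicate block, 5 to 20 with any 1 sample left out, and 5 without both KO sample 1 and WT sample 4. Same-numbered KO and WT samples deviated from their group means with correlations of 0.34, -0.11, -0.15 and 0.34 for samples 1 to 4. Differently numbered samples gave -0.33 to 0.20. The labels name no pairing, and whether the numbers pair the samples was not settled by these values. With the replicate block no call among the 8 genes changed. The B2m difference kept its sign in all 17 (-0.388 to -0.234, limma adjusted p 0.154 to 0.70), as did Psmb9 (-0.152 to -0.008). Differences near 0 turned. Tap1 was 0.009 without KO sample 4 and 0.013 without WT sample 2. Psmb8 was -0.044 with array weights, -0.058 without WT sample 4 and -0.066 without both KO sample 1 and WT sample 4, and 0.093 at its highest with 1 sample left out. Cd74 was -0.004 with quantile normalization, -0.106 with array weights, -0.118 without KO sample 1, -0.064 without KO sample 3, -0.07 without WT sample 3, -0.032 without WT sample 4, -0.164 without both, 0.2 at its highest with 1 sample left out, and -0.26 after subtracting the macrophage mean. H2-Aa was 0.066 without KO sample 2 and 0.068 without WT sample 2, and H2-Ab1 0.084 and 0.071. Without both KO sample 1 and WT sample 4 they were -0.206 and -0.168. Ctss was -0.13 after subtracting the macrophage mean. The causes were not tested. Among the 3 class II pairs r stayed between 0.86 and 0.99 in all alternatives. Signal near the array floor compresses changes.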
